A study of Arabidopsis thaliana with 8 samples.

Results

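Transcripts of 8 cold and dehydration genes of Arabidopsis thaliana were followed in floral buds in which dexamethasone activates a fusion of the protein RABBIT EARS (RBE). The genes were RD29A, RD29B, COR15A, COR15B, COR47, ERD10, KIN1 and KIN2, chosen by their locus identifiers, and all 8 were found among the 28775 genes of the deposited table. In the DEX group, buds of mixed stages received 10 µM dexamethasone in 0.1% ethanol and 0.015% Silwet for 4 h, and mock buds received the ethanol and Silwet alone. All plants were of the L er strain, carried the 35S:GR-RBE transgene and grew at 22 °C in 16 h of light and 8 h of dark, so the mock buds held the transgene too. In this transgene a viral promoter active in most tissues drives RBE, a zinc-finger repressor needed for petal development, joined to the hormone-binding end of the glucocorticoid receptor, so that dexamethasone lets it into the nucleus. Plants without the transgene were not analysed here. The 4 libraries of a treatment came from 2 biological replicates, sequenced as 2 technical replicates apiece, and the deposited table holds 1 pooled value per gene and treatment.

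The 8 genes are standard markers of the cold and dehydration responses. In the cold, C-repeat binding factors (CBF proteins, also called DREB1) are made and bind the C-repeat or dehydration-responsive element, whose core is CCGAC, in the promoters of these genes. Drought and salt act on many of the same genes through abscisic acid, whose transcription factors bind the ABRE, with the core ACGTG. Most of the encoded proteins are very hydrophilic and help to keep membranes or other proteins intact when cells lose water.

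Recovered reads in genes came to 102142647 in DEX and 119056377 in mock. Each value below is a reading of pooled libraries, and errors given as ± are standard errors of read counting alone. Values per library were not used here, so replicates could not be compared. Calls of a direction required reads in both pools and a posterior under 0.05 for the opposite direction in the authors' deposited table. On a normal scale, this posterior rose with the ratio over its counting error at a slope of 1.00 over 8121 genes. The calls, like the errors, thus reflect read counting and not the spread between biological replicates. RBE itself, whose native and transgenic reads were counted together, was at a log2 ratio of -0.19 ± 0.01, from 21775 DEX reads and 28895 mock reads. This ratio is for the native and fusion RNA in sum, and does not show activation of the fusion. All 5 floral markers had reads, from 238 in DEX and 442 in mock for LFY to 12520 in DEX and 17063 in mock for AP3. In RNA of whole buds, fewer cells of a type and less RNA per cell cannot be told apart.

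Of the 8 genes, 7 were called higher in DEX, 0 were called lower, and RD29B was not called. Over all 24945 genes with reads in both pools, 36.4% were called higher and 20.8% lower. The 7 called genes all had more than 10000 reads over both pools, a depth at which 43.9% of 5711 genes were called higher and 33.9% lower, a comparison added after the data were seen, so the calls say less than the sizes. The log2 ratios of DEX over mock ran over the 8 genes from 0.09 to 0.89, with a median of 0.25, against a median of 0.05 over all genes and 0.02 over genes with 10000 reads or more. By size the genes fell into a strongly higher set of COR15B, RD29A and COR15A and a slightly higher set of KIN2, COR47, ERD10 and KIN1. COR15B and RD29A passed 1.5-fold, and none of the 8 was lower by as much. That limit was passed by 4.45% of all genes upward and 2.91% downward, and by 0.718% and 1.12% of the genes with 10000 reads or more.

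**Figure D1:**
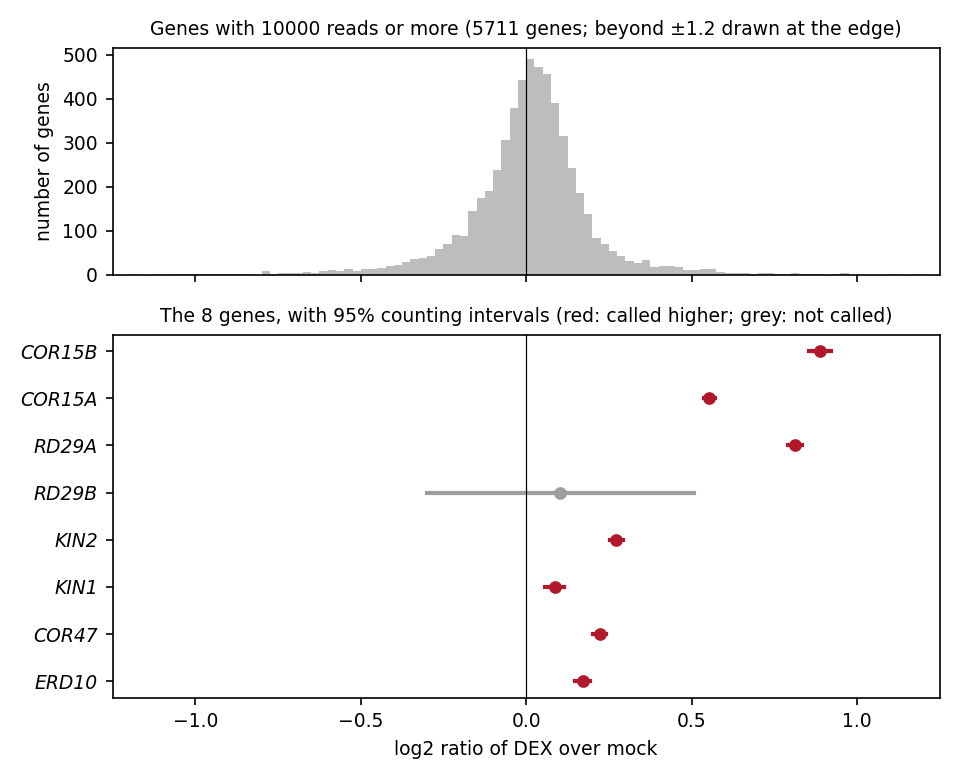
The upper panel counts the 5711 genes with 10000 reads or more by their log2 ratio of DEX over mock. The lower panel shows the same ratio for the 8 genes as points, with bars for 95% counting intervals, and RD29B in grey has the only interval that crosses 0.

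Matches to the CCGAC core near the 8 genes are shown first, from the RefSeq genome of build TAIR10.1. Each line below gives the CCGAC match nearest to the start codon of a gene, read 5′ to 3′ on the strand of the gene, with the core in capitals and 10 bases on either side.
COR15B: aacttgatggCCGACctcttttttc
COR15A: aatttcatggCCGACctgctttttt
RD29A: aaagatcaagCCGACacagacacgc
RD29B: taaacgtggaCCGACtaaaactaaa
KIN2: taaaaagctaCCGACataaggcaaa
KIN1: taaatagctaCCGACataaggcaaa
COR47: tattcatctaCCGACttcaagaaat
ERD10: caccgaccgaCCGACgtaaaagaaa
All 8 genes held a CCGAC core within 500 bases of the start codon, which 23.4% of 27443 protein-coding genes did, both strands being searched. The printed flanks are alike between COR15B and COR15A and between KIN2 and KIN1, and much less so between RD29A and RD29B or COR47 and ERD10. The printed sites were picked by nearness to the start codon, at -208 in RD29A and -320 in RD29B, and need not correspond. Other matches, such as that of RD29A at -352, were not compared. In ERD10 there were 3 matches that start every 4 bases and overlap by 1, at -278, -274 and -270 from the start codon, and the last is in capitals. RD29A had the most matches, 4, COR15A had 2, and RD29B, COR15B, COR47, KIN1 and KIN2 had 1 each.

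RD29A and RD29B are the textbook pair for the split between the cold and the abscisic acid routes, and they lie next to each other. Their promoters are printed for that contrast, with that of COR15A, as the 300 bases before the RefSeq transcript start. Every CCGAC and ACGTG match on either strand is in capitals, so a match on the other strand appears as GTCGG or CACGT. The windows are chr5:21240417-21240716 on the plus strand for RD29A, chr5:21236721-21237020 on the plus strand for RD29B and chr2:17712331-17712630 on the minus strand for COR15A, and no annotated gene overlaps them.
RD29A: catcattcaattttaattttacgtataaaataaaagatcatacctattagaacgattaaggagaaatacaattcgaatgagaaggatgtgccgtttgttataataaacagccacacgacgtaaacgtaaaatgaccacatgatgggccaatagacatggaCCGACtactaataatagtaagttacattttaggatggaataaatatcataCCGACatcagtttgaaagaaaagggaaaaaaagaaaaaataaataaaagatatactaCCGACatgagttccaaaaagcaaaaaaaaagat
RD29B: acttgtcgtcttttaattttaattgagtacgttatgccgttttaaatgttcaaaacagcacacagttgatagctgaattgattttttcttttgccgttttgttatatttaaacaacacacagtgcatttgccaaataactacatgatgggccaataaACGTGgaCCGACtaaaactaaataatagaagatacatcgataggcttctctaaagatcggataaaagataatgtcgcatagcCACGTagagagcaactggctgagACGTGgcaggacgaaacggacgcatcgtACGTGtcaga
COR15A: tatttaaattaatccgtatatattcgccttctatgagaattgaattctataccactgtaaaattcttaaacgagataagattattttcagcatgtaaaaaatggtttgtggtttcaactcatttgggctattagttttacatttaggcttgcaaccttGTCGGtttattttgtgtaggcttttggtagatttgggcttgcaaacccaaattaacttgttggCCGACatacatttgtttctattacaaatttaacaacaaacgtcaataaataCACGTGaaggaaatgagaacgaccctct
The RD29A window held 3 CCGAC and 0 ACGTG matches, the RD29B window 1 and 4, and the COR15A window 2 and 2. Counted over the 500 bases before the start codon, RD29B had 4 ACGTG matches against 1 in RD29A. In KIN2 there were 7 and in KIN1 and COR15A 5 each, COR15B had 3, COR47 had 1 and ERD10 had 0. A palindrome CACGTG gives 2 overlapping ACGTG matches, 1 on each strand, and COR15A, COR15B, KIN1 and KIN2 held such palindromes. Over all genes, 34.9% had at least 1 ACGTG match in that window. The evening element core AATATC, bound by clock proteins, was present in 7 of the 8 genes, against 39.1% of all genes, with RD29B as the exception.

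**Figure D2:**
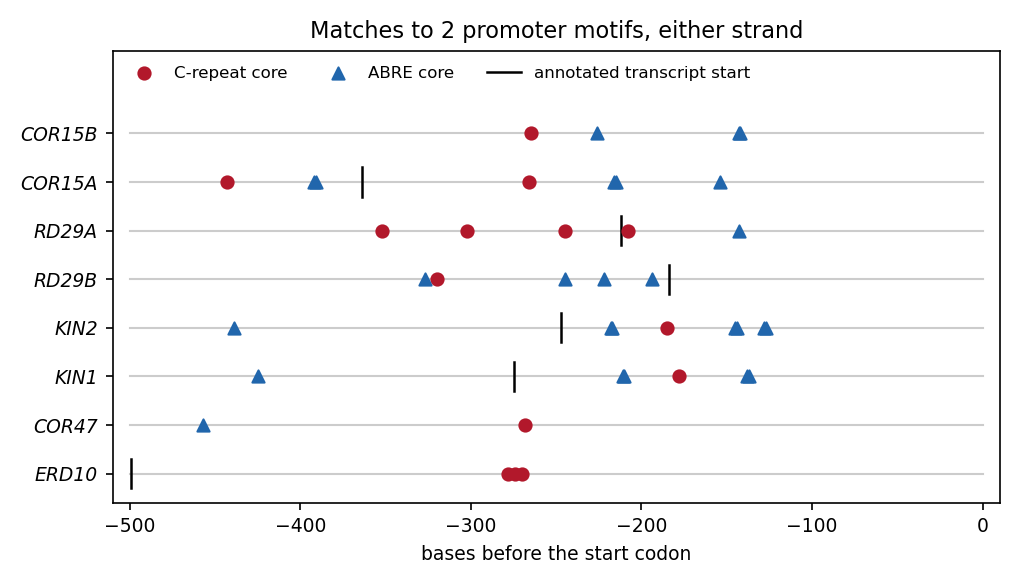
Positions of the C-repeat core (circles) and the ABRE core (triangles) in the 500 bases before the start codon of the 8 genes, with a black tick at the RefSeq transcript start where it falls in this window. Every gene has a circle, RD29A has 4, and triangles are most frequent in KIN2.

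The annotated starts were far from the start codon in several genes, 1209 bases in COR47 and 560 in COR15B, which is why distances are given to the start codon. Of the CCGAC matches nearest to the start codon, only that of RD29B lay before the RefSeq transcript start, and the others lay within the annotated transcript. In RD29A that match was at -208, with the transcript start 212 bases before the start codon, and its other matches lay before that start. Set beside the log2 ratios, RD29A had 4 matches and 0.81, ERD10 3 and 0.17, and COR15A 2 and 0.55. Of the genes with 1 match, COR15B was at 0.89, KIN2 at 0.27, COR47 at 0.22, RD29B at 0.10 and KIN1 at 0.09. Among all genes with 200 reads or more, 41.8% were called higher and 24.5% lower, with 2.49% and 2.43% by 1.5-fold. With the 8 genes left out, 43.9% of the 173 genes with 3 or more CCGAC matches were called higher in DEX and 19.7% lower, against 41.7% and 25.2% of the 14822 with none. For 1 and 2 matches the shares called lower were 23.7% and 20.3%. At 1.5-fold, 1.16% of the genes with 3 or more matches were higher and 0% lower, against 2.57% and 2.69% of those with none. The median log2 ratio was 0.04 in each of these sets. Having 3 or more ACGTG matches went with 36.9% called higher and 32.8% called lower in 1169 genes, against 42.6% and 23.0% in the 12880 genes with none. A match of letters is no measure of binding.

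COR15A and COR15B encode small proteins imported into the chloroplast stroma, where they shield membranes during freezing. COR15B (AT2G42530, chromosome 2, 17708593 to 17710433, minus strand) had 19450 reads in DEX and 12255 in mock, or 120 RPKM in DEX and 65.0 RPKM in mock (reads per kilobase of exonic length, per 1000000 reads of the pool). Its log2 ratio was 0.89 ± 0.02, a 1.85-fold difference and the 9th highest among the 5711 genes with 10000 reads or more. COR15A (AT2G42540, chromosome 2, 17710441 to 17712330, minus strand) had 59598 reads in DEX and 47325 in mock, or 368 RPKM in DEX and 251 RPKM in mock. Its log2 ratio was 0.55 ± 0.01, or 1.47-fold, at place 53 of the same genes. Both members of the pair were thus higher in DEX, and COR15B by more: its log2 ratio exceeded that of COR15A by 0.33 (95% counting interval 0.30 to 0.37). COR15B accordingly made up 24.6% of the reads of the pair in DEX and 20.6% in mock.

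The RefSeq models of COR15A and COR15B are only 7 bases apart on the same strand, and their coding sequences are 83.6% identical over 421 aligned bases. Of the 36-base stretches in the exons of either gene, 0 occurred anywhere else in the genome, so reads of that length could be placed. COR15B also shares 468 exonic bases with AT2G42520 on the other strand, which had 7387 reads in DEX and 7835 in mock and a log2 ratio of 0.14 ± 0.02. The sources used here do not say whether the counting used strand, so the reads of this stretch are uncertain. With the reads of both COR15 genes summed, the pair was at 0.63 ± 0.01, or 1.55-fold.

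RD29A and RD29B encode large hydrophilic proteins whose biochemical role is not settled, and both are used as stress reporters. RD29A (AT5G52310, chromosome 5, 21240717 to 21243644, plus strand) had 43751 reads in DEX and 29055 in mock, or 161 RPKM in DEX and 91.6 RPKM in mock. The log2 ratio was 0.81 ± 0.01, or 1.76-fold, the 12th highest of the genes with 10000 reads or more. RD29B (AT5G52300, chromosome 5, 21237021 to 21239531, plus strand) had only 94 reads in DEX and 102 in mock, or 0.42 RPKM in DEX and 0.39 RPKM in mock. Its log2 ratio was 0.10 ± 0.21 with a 95% counting interval of -0.30 to 0.51, and the posterior that DEX was higher was 0.697 in the authors' deposited table. On the fold scale the interval ran from 0.81 to 1.42, so changes within it are not excluded at this depth. RD29A exceeded RD29B by 0.71 on the log2 ratio scale, with a counting interval of 0.30 to 1.11 that leaves out 0. That interval does not cover RD29A reads wrongly placed in RD29B.

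In level, these neighbours stood further apart than in ratio. RD29A was 379 times as abundant as RD29B per kilobase of exon in DEX and 232 times in mock. RD29B lay in the lower part of all genes, with 25.4% of them at or below its RPKM in DEX and 25.5% in mock, while 98.0% in DEX and 95.9% in mock were at or below that of RD29A. The genes are 1185 bases apart, their coding sequences align at 74.1% identity over 928 bases, and 6 of 2523 exonic 36-base stretches of RD29A occur in RD29B. Reads of RD29A placed in RD29B by such stretches were not measured. RD29A had 43751 reads in DEX and 29055 in mock, against 94 and 102 for RD29B. Even a small share of RD29A reads so placed would therefore weigh on the ratio and the level of RD29B.

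KIN1 and KIN2 encode very small proteins rich in alanine, glycine and lysine, and KIN2 is also known as COR6.6. KIN2 (AT5G15970, chromosome 5, 5211719 to 5212743, plus strand) had the highest level of the 8 genes, 566 RPKM in DEX and 469 in mock, from 43378 reads in DEX and 41857 in mock. The log2 ratio of KIN2 was 0.27 ± 0.01, or 1.21-fold. KIN1 (AT5G15960, chromosome 5, 5209717 to 5210826, plus strand) had 17743 reads in DEX and 19482 in mock, or 210 RPKM in DEX and 197 RPKM in mock. The log2 ratio of KIN1 was 0.09 ± 0.01, or 1.06-fold, and 27.9% of genes with 10000 reads or more had a higher ratio. KIN2 was above KIN1 by 0.19 (0.15 to 0.22) on the log2 ratio scale.

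The pair is the most alike of the 4, with coding sequences of 201 bases each at 95.02% identity. Identical stretches of 36 bases made up 4.01% of those in the exons of KIN1 and 4.50% in KIN2, and stretches of 50 bases 0.15% and 0.17%. These are shares of exonic positions under exact matching, and the sources used here do not give the read length. The part of the reads of this pair that is uncertain was therefore not measured. The summed pair was at 0.22 ± 0.01, or 1.16-fold.

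COR47 and ERD10 encode acidic dehydrins, proteins that are disordered in solution and bind membranes and other proteins in drying cells. COR47 (AT1G20440, chromosome 1, 7084409 to 7086873, minus strand) had 42141 reads in DEX and 42105 in mock, or 178 RPKM in DEX and 152 RPKM in mock. Its log2 ratio, which takes the larger mock total into account, was 0.22 ± 0.01, or 1.17-fold. ERD10 (AT1G20450, chromosome 1, 7087903 to 7089606, minus strand) had 30064 reads in DEX and 31117 in mock, or 181 RPKM in DEX and 161 RPKM in mock, and a log2 ratio of 0.17 ± 0.01, or 1.13-fold. These neighbours were the closest pair in response, 0.05 apart (0.02 to 0.08), and in level, with COR47 at 0.98 of the RPKM of ERD10 in DEX and 0.95 in mock. Per kilobase of coding length COR47 was instead the higher, at 1.38 times ERD10 in DEX and 1.33 times in mock. Their coding sequences are 73.7% identical over 829 aligned bases, and 2 of 1554 exonic stretches of 36 bases in ERD10 occur in COR47.

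**Figure D3:**
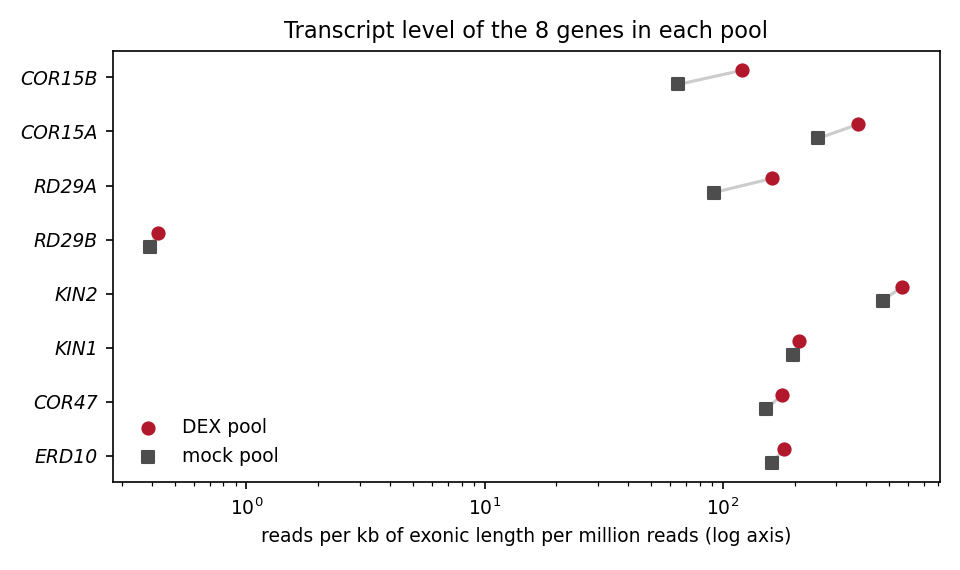
Level of each gene in RPKM on a log axis, in the DEX pool (circles) and the mock pool (squares). KIN2 is highest at 566 in DEX and 469 in mock, and RD29B lies far below the others at 0.42 in DEX and 0.39 in mock.

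Ordered by log2 ratio, the genes ran COR15B, RD29A, COR15A, KIN2, COR47, ERD10, RD29B and KIN1. Among the first 6, each exceeded the next by more than counting error, with COR15B above RD29A by 0.08 (0.04 to 0.11). RD29B could not be placed, since its interval took in the ratios of KIN1, ERD10, COR47 and KIN2. Ordered by RPKM in either pool, the genes ran KIN2, COR15A, KIN1, ERD10, COR47, RD29A, COR15B and RD29B. Each differed from the next by more than counting error in both pools. Per kilobase of coding length, a measure added after the data were seen, the order in DEX was KIN2, COR15A, KIN1, COR47, COR15B, ERD10, RD29A and RD29B. Against the spread of like genes, an SD of 0.19 in log2 ratio over those with 10000 reads or more, the ratios of KIN2, COR47, ERD10 and KIN1 were exceeded by 5.39%, 7.67%, 11.7% and 27.9% of these genes in turn. Together the 8 genes took 0.251% of all reads in DEX and 0.188% in mock.

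The genes around the 4 pairs were mixed. Of 8 neighbouring or overlapping genes outside the pairs with reads in both pools, 5 passed as higher and 1 as lower, at a median log2 ratio of 0.10. Over all genes with reads in both pools, 36.4% were called higher and 20.8% lower. CYP96A4 (AT5G52320), a cytochrome P450 gene next to RD29A, was at -0.68 ± 0.05, from 1463 DEX reads and 2739 mock reads. AT1G20430 next to COR47 was at 0.03 ± 0.03 and AT5G15980 next to KIN2 at 0.06 ± 0.03. The higher call of AT5G15980 was lost once all ratios were centred on the median gene. SHOC1, a meiosis gene next to RD29B, was at 0.23 ± 0.10, and AT2G42550 next to COR15A rested on 13 reads in DEX and 6 in mock.

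The transcription factors that bind the C-repeat had no member called lower. Of 8 listed CBF and DREB2 genes, 7 had reads in both pools and 4 passed as higher and 0 as lower, at a median log2 ratio of 0.25 against 0.05 over all genes. Beside this and the lists below, 36.4% of all genes were called higher and 20.8% lower, or 41.8% and 24.5% at 200 reads or more. Only 3 of the listed genes had 200 reads or more, and the list median is the value of CBF1. CBF3 had the most reads of the CBF genes, 1311 in DEX and 1116 in mock, and was at 0.45 ± 0.06. CBF2 had 107 reads in DEX and 86 in mock and was at 0.53 ± 0.21. CBF1, with 33 reads in DEX, 32 in mock and a ratio of 0.25 ± 0.36, was not called. The drought and heat factors DREB2A and DREB2B were at 0.24 ± 0.06 and 0.30 ± 0.06. DREB2B shares 1086 exonic bases with a gene on the other strand, so its reads are uncertain. The 3 rarest genes had 3 reads in DEX and 6 in mock for CBF4, 12 in DEX and 21 in mock for DDF1, and 0 in DEX and 1 in mock for DDF2.

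Of 11 regulators that act on CBF expression, 6 passed as higher and 2 as lower at a median of 0.08, or 4 and 4 once all ratios were centred on the median gene. The MYC-type activators SCRM2 and ICE1 were at 0.31 ± 0.02 and 0.15 ± 0.02, and the calmodulin-binding activator CAMTA3 at 0.17 ± 0.02. PIF7, a light-regulated repressor of CBF genes, was at -0.57 ± 0.11, from 293 DEX reads and 505 mock reads, and shares 318 exonic bases with a gene on the other strand.

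Of 7 factors that the cold induces in parallel with the CBF genes, 4 passed as higher and 2 as lower, and the list median was 0.28. DEAR1, a DREB-type factor, was at 1.07 ± 0.15, from 253 DEX reads and 140 mock reads. The zinc-finger genes CZF1 and ZAT12 were at 0.81 ± 0.03 and 0.58 ± 0.04. MYB73 was at -0.12 ± 0.03. The other lower call, HSFC1, which the rule for named genes does not cover and which was looked up after the count was known, rested on 5 reads in DEX and 15 in mock.

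Further cold-regulated genes were split, with 8 of 16 called higher, 6 lower and 2 not called, at a median of 0.19. The sucrose synthase gene SUS1 was at 0.46 ± 0.01 and COR413-PM1, which encodes a plasma membrane protein, at 0.41 ± 0.01. COR413IM1, a relative of COR413-PM1 in the chloroplast envelope, was 2.29-fold lower, at a log2 ratio of -1.198 ± 0.04, from 2179 DEX reads and 5826 mock reads. BAM3, the beta-amylase of starch breakdown in leaves, was at -0.39 ± 0.01 and shares 531 exonic bases with other genes.

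The 8 dehydrins other than COR47 and ERD10 were mixed as well: 4 passed as higher and 2 as lower, at a median of -0.04. LTI30, a basic dehydrin, had 1642 reads in DEX and 1298 in mock and a log2 ratio of 0.56 ± 0.05. RAB18, a standard reporter of abscisic acid, was at -0.97 ± 0.09, from 409 DEX reads and 933 mock reads.

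Among 19 listed genes of abscisic acid, all with 200 reads or more, 9 were called lower and 6 higher. Over all genes of that depth, 24.5% were called lower and 41.8% higher. Once centred in the same way, the list had 10 lower and 4 higher. Over all 24945 genes with reads in both pools, centring gave 7352 lower and 6339 higher. The list median was -0.03. The broader annotation term for the response to this hormone, in the authors' deposited table, had 121 of 292 other genes higher and 83 lower, with a median of 0.03. HAI1, a phosphatase gene that the hormone induces, was at -0.73 ± 0.03, from 2755 DEX reads and 5326 mock reads. RD20, a caleosin gene, was at -0.29 ± 0.02 and RD22 at -0.21 ± 0.01, and RAB18 belongs to this list as well. RD29B, the member of the 8 genes that depends on this hormone most, was not called, as given above. Among the 10 other late embryogenesis abundant genes 3 were higher and 2 lower by call, and the median was 0.01. SAG21, LEA14 and LEA4-5 were at 0.28 ± 0.02, 0.45 ± 0.03 and 0.50 ± 0.11, and LEA7 at -0.50 ± 0.11. SAG21 shares 180 exonic bases with an overlapping gene. A difference in direction between these lists was not tested.

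**Figure D4:**
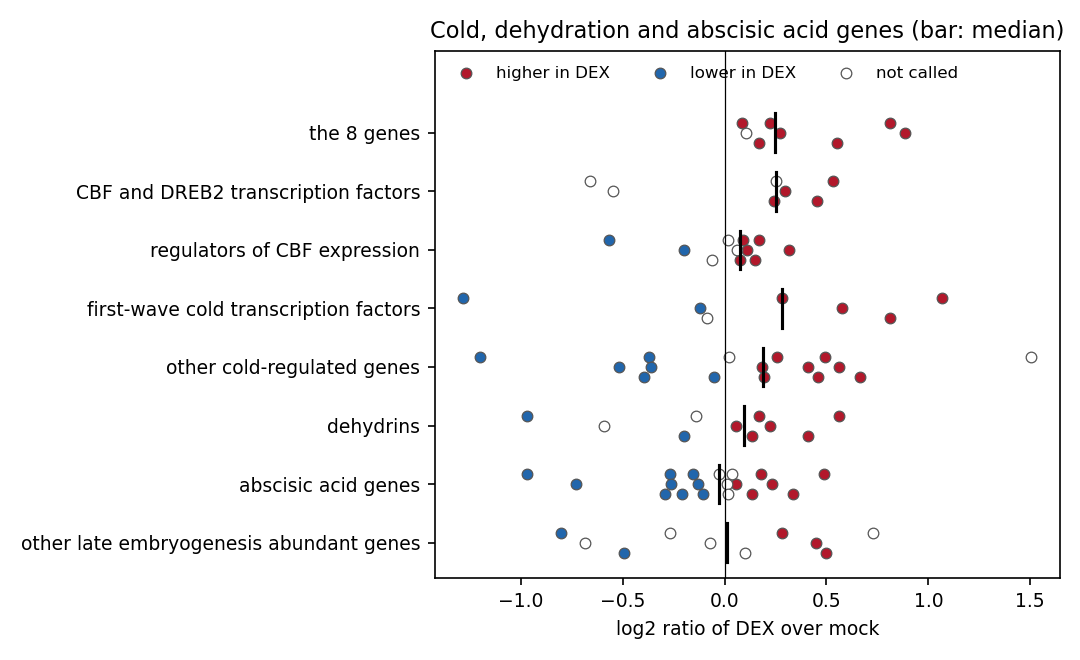
Log2 ratios of DEX over mock for the 8 genes and 7 lists of related genes, 1 point per gene with reads in both pools, coloured by call, with a black bar at each median. The medians run from -0.03 for the abscisic acid genes to 0.28 for the first-wave cold factors, against 0.25 for the 8 genes. The dehydrins drawn include COR47 and ERD10, with a median of 0.10, against -0.04 without them.

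Markers of cell types in the bud differed between the pools too. The 4 pollen markers summed to 1260 reads per 1000000 in DEX and 1005 in mock, with 3 called higher and 1 lower. VGD1, AGP11 and AGP6 were at 0.37 ± 0.01, 0.35 ± 0.02 and 0.29 ± 0.01 and PPME1 at -0.28 ± 0.03. All 5 floral markers were called lower, with LFY at -0.68 ± 0.12, and their sum was 391 reads per 1000000 in DEX and 464 in mock. Among genes with 10000 reads or more, 43.9% were called higher and 33.9% lower, with an SD of 0.19 in log2 ratio. All the pollen markers and all the floral markers but LFY had that depth. AP1, AP3 and SEP3 were at -0.13 ± 0.02, -0.23 ± 0.02 and -0.43 ± 0.02. Of the 3 tapetum markers, MS1 at 0.57 ± 0.05 and ACOS5 at 0.16 ± 0.01 were higher and A9 at -0.11 ± 0.02 was lower, with sums of 423 reads per 1000000 in DEX and 401 in mock. Seed storage and oil body genes, the classic companions of late embryogenesis abundant proteins, had 56 reads in DEX and 61 in mock over 4 genes. SESA3 was at 0 in both pools, and CRU3, at 17 reads in DEX and 3 in mock, was the only call, higher. The part of these differences in the ratios of the 8 genes was not tested.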

How the data were processed

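Per the labels, an Illumina Genome Analyzer read poly-A RNA of the buds, and TopHat 1.2.0, HTSeq 0.4.5p6 and TAIR10 are named in the submitters' processing notes without roles. Per the file headers, the table the authors deposited gives each gene a level as a ratio to the lower treatment, a posterior from 0 to 1 for each direction, interval half-widths and a log-likelihood score, the layout of the program LOX. The half-widths were not used. All deposited values are pooled over the libraries.

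Reads per pool were recovered from the score, taken as a Poisson log-likelihood summed over both pools, in which a pool with T reads in all and N in the gene adds N times the natural log of N/T, minus N. No source used here states this formula. It gave whole reads within 0.05 for 100% of 908 genes with reads in 1 pool, and a total within 0.1 of a whole number for 99.98% of 8294 genes with up to 1000 reads in both. Counting errors and 95% intervals come from these reads and cover counting error only. PCR copies may be among the reads.

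Members and gene lists were chosen with earlier results of these data known. Besides the 8 genes, up to 4 genes were named per list, those whose opposite direction had the smallest posterior, and among ties those with the largest ratio over its error, and so were genes next to or overlapping a member. Positions, lengths and sequences are from RefSeq TAIR10.1, which matched 28009 loci. RefSeq is of the Columbia strain, and the buds were of another. Coding sequences were aligned with blastn 2.17.0, and calculations used NumPy 2.4.6 and SciPy 1.17.1 under Python 3.11.15, with figures by Matplotlib 3.10.9. The recovery was tested on simulated reads, whose scores were built with the same formula, so that test could not check the formula itself. Protein sequences were not used here. A count test across libraries had no input, since no values per library were used here.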

Additional observations from a re-analysis of the deposited data

How the results depend on the processing

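No paired analysis was possible because libraries of 1 treatment share 1 pooled value, and no replicate was left out for that reason. Of the 39 genes named from the lists and markers, 9 overlap a gene on the other strand. The neighbour AT2G42520 overlaps COR15B, and other overlaps of the neighbours were not looked up. Centring on the median gene lowered every log2 ratio by 0.05, and leaving the 1% most abundant genes out of the totals by 0.01. Under both, under a posterior limit of 0.01 and under a correction for GC content and length, the 7 genes called higher kept that call and RD29B stayed uncalled. Leaving out COR15B, an alternative added after the data were seen, gave 6 called higher by construction, since calls are made gene by gene. In alignments of whole exonic sequences, none of the 8 has a near-identical copy, at 95% identity over 100 bases, outside its own locus. The coding sequences of KIN1 and KIN2 taken alone do reach that limit, at 95.02% identity over 201 bases.

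A limit of 1.5-fold leaves fewer genes by construction. Under it COR15A at 0.55, KIN2 at 0.27, COR47 at 0.22, ERD10 at 0.17 and KIN1 at 0.086 lost the call, which left 2 of the 8 genes. Over all genes 1109 then stayed higher and 727 lower. RD29B summed with RD29A was called at 0.81, since RD29A holds nearly all reads of that pair. Over all genes the calls went to 6339 higher and 7352 lower after centring, against 9081 and 5183, which turned the excess of higher calls round.

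At 1.5-fold, the CBF and DREB2 list had 0 higher, the regulators of CBF expression 0 and 0 lower, the first-wave factors 2 and 1, the other cold-regulated genes 1 and 1, the dehydrins 0 and 1, the abscisic acid genes 0 and 2 and the other late embryogenesis abundant genes 0 and 1. The first-wave factors had 1 lower at a posterior limit of 0.01 and 1 with at least 200 reads, where their median was 0.43. After centring, regulators had 4 lower and a median of 0.022, other cold-regulated genes a median of 0.14, all 10 dehydrins 0.043 and abscisic acid genes -0.080. With at least 200 reads all dehydrins had a median of 0.14, and the other late embryogenesis abundant genes 1 lower and 0.28. The median of the last list turned to -0.041 after centring and to -0.0014 without the 1% most abundant genes. The causes were not tested. Of 188 values for these 47 genes outside the 8, neighbours included, 38 lost the call, 34 of them under the fold limit, and 0 called values changed sign. The uncalled AT1G20430 changed sign to -0.021 after centring, and the uncalled AT1G20460 to -0.042 after centring and to -0.0026 without the 1% most abundant genes. With 1000 bases searched, a window added after the data were seen, all 8 genes held CCGAC, against 39.4% of all genes, and all 8 ACGTG, against 54.2%.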

Other observations

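The authors' deposited table lists annotation terms beside its values, and all 8 genes carry the term response to cold there. These sets were compared after the data were seen. Among the 227 other genes of that term with reads in both pools, 104 were called higher and 74 lower in DEX, which is 45.8% and 32.6%, with a median log2 ratio of 0.04. Over genes with 200 reads or more, which 212 of the 227 genes had, the shares were 41.8% and 24.5%. At 1.5-fold or more, 15 were higher and 6 lower. The response to water deprivation had 82 of 183 other genes higher and 62 lower, with a median of 0.03, and at 1.5-fold 6 higher and 10 lower. The term response to heat, which none of the 8 genes carries, had 65 of 124 higher and 24 lower, with a median of 0.06. The median over all genes was 0.05.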
